A study of Mus musculus with 384 samples.

Results

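The SWI/SNF remodelers use the energy of ATP to slide and evict nucleosomes, and so open chromatin at promoters and enhancers. Each complex holds 1 ATPase, SMARCA4 (BRG1) or SMARCA2 (BRM), together with SMARCC and SMARCD subunits. The canonical BAF and PBAF forms also hold SMARCB1 and SMARCE1, which the non-canonical form lacks, and BAF adds a large ARID1 subunit that takes part in targeting to DNA. Several of these genes, among them Arid1a, Smarca4 and Smarcb1, are known tumor suppressors. The accessible chromatin around 10 of the subunit genes is described here, in cells of a mouse breast tumor. The 10 genes, of 22350 protein-coding genes in the annotation, were chosen by name, and they are Smarca2, Smarca4, Smarcb1, Smarcc1, Smarcc2, Smarcd1, Smarcd2, Smarce1, Arid1a and Arid1b.

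The data were 1 list of 50000 accessible windows, each 500 bp wide, called on the pooled single cells of Pi-ATAC. In this assay fixed cells are stained with antibodies, their open DNA is cut and tagged by a transposase, and single cells are sorted into wells. The pool came from 4 plates of 96 wells of cells from a PyMT breast tumor, a model in which the MMTV promoter drives a viral oncogene in the mammary epithelium. All wells carried a stain for EpCam, an epithelial surface protein, and for CD45, a leukocyte surface protein. In the paper, CD45-positive cells were few among the stained tumor cells but outnumbered EpCam-positive cells among those passing its filter. The sorted cells thus did not have the composition of the tumor, and not all wells passed that filter. The wells formed 1 group without a second condition, a replicate list or a stain value per well. No difference between epithelial cells and leukocytes could therefore be tested. In a pooled list, a window open in more cells of 1 type and a window open more often in every cell cannot be told apart. No read number, score or q came with the positions, and the depth behind a window was unknown.

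Windows near markers of both stained compartments were in the list. Of 5 epithelial markers, Cdh1 and Cldn4 had a promoter window, while Epcam, Krt8 and Krt18 had none. Of 5 leukocyte markers, Coro1a, Laptm5, Ikzf1 and Runx3 had one and Ptprc, the CD45 gene, did not. The shares were 40.0% and 80.0%, against 43.5% of all protein-coding genes, so the epithelial count does not set that compartment apart. Within 50 kb of a start, Epcam had 9 windows, Krt8 4, Krt18 3 and Ptprc 4, against a median of 3 over protein-coding genes.

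A window was counted for a gene when its centre lay within 50 kb of any annotated start site of that gene, and as a promoter window when it lay within 1 kb. By this rule 62 of the 50000 windows belonged to the 10 genes, and none was counted for more than 1 of them. Promoter windows were present at 8 of 10 genes, and Smarcb1 and Smarcd1 had none. Over all protein-coding genes the share was 43.5% (exact binomial 95% interval 42.8 to 44.1). At least 2 promoter windows were found at 3 of the 10 genes (Smarca2, Smarcd2 and Arid1b), against 14.5% of protein-coding genes, and 4 of them at Smarca2 and Smarcd2, against 0.783% with at least 4. Every one of the 10 genes had a window within 50 kb, as had 84.6% of protein-coding genes.

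The windows were spread unevenly. Smarcd2 had 14 windows within 50 kb, Arid1b 10 and Smarcc2 9. Smarca4 and Smarcb1 had 6 each, Arid1a 5 and Smarca2 4. Smarcc1 and Smarcd1 had 3 each and Smarce1 had 2. The median of 5.5 stood beside a median of 3 over all protein-coding genes (quartiles 1 and 6), with 7 genes above that median and Smarce1 below it. Within 10 kb the medians were 2.0 and 1.0, and they were again 2.0 and 1.0 when only windows with their nearest protein-coding start at the gene were counted. Of the 62 windows, 15 lay at promoters of the subunit genes, 13 elsewhere inside them, 17 at promoters of other genes and 17 outside the genes.

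**Figure D1:**
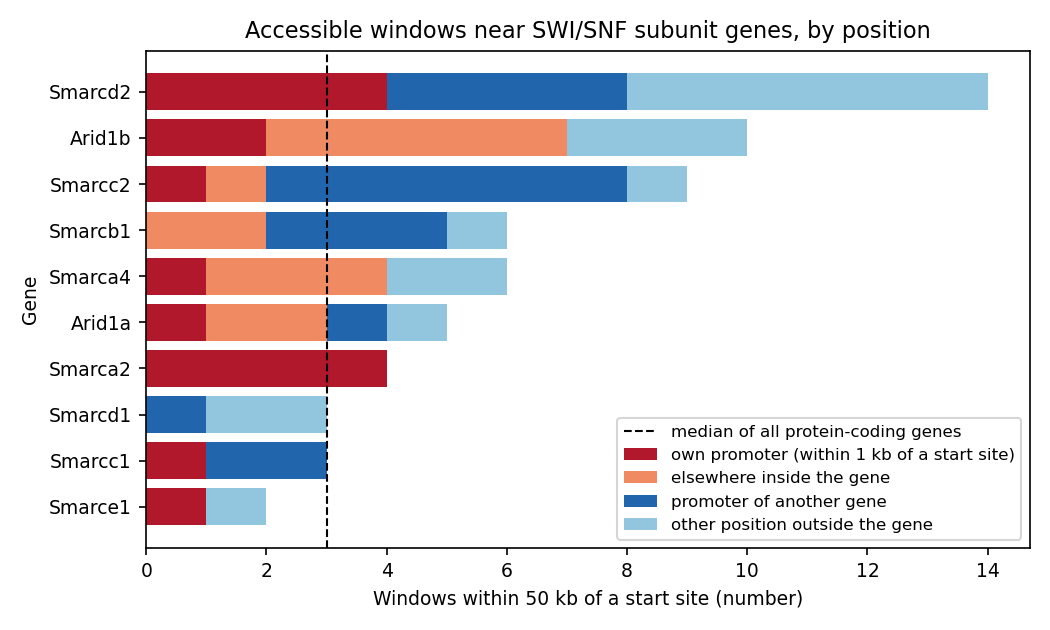
Number of accessible windows within 50 kb of a start site for each of the 10 genes, stacked by position, with the median of all protein-coding genes as a dashed line. Smarcd2 reached 14 windows, of which 4 were at its own promoters, whereas all 4 windows of Smarca2 were promoter windows.

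Stretches of these windows follow in mm9, each from the window centre or from around the matched letters and clear of annotated untranslated regions. They are shown because they hold the letters near starts and within genes to which the later counts refer. Capitals mark matches to consensus words described with the counts, except in Smarcc2 promoter, where they mark letters of a tRNA-type B box. Sequences are on the strand of the gene, and the minus strand is given for Smarcd2 and Arid1a.
Smarca2 promoter, chr19:26680524-26680576: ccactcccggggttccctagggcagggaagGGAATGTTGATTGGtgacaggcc
Smarca4 promoter, chr9:21420459-21420612: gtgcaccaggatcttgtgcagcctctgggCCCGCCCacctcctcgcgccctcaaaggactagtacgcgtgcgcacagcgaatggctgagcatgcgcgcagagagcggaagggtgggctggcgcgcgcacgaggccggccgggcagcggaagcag
Smarcc1 promoter, chr9:110034381-110034540: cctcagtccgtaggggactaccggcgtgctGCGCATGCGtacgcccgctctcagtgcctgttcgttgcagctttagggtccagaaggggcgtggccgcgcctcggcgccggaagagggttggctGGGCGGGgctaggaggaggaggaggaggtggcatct
Smarcc2 promoter, chr10:127895483-127895642: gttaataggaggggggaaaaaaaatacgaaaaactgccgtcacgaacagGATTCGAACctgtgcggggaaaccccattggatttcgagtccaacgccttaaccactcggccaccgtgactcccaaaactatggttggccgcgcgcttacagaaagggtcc
Smarcd2 promoter, chr11:106134291-106134483: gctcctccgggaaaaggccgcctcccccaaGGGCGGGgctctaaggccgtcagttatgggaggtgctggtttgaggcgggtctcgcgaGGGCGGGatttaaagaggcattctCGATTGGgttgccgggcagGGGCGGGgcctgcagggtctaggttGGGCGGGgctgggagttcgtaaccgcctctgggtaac
Smarcd2 coding exon and intron, chr11:106125958-106126025: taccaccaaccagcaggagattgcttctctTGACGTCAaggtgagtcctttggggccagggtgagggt
Smarcc2 intron, chr10:127916015-127916081: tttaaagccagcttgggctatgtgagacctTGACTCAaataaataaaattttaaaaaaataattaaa
Arid1a intron, chr4:133244340-133244406: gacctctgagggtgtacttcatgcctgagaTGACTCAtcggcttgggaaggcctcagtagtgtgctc
Arid1b coding exon, chr17:5327661-5327727: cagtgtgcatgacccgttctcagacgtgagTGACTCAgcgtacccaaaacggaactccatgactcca
Arid1b intron, chr17:5295732-5295906: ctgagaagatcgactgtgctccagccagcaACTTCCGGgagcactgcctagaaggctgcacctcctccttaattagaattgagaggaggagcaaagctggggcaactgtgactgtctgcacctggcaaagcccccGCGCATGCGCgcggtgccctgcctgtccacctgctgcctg

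The ATPase genes differed in where their windows lay. Smarca2 (ENSMUSG00000024921, chr19:26679650-26852811, plus strand) had 4 promoter windows in a row over 2593 bp, from 26678751 to 26681343, and no other window within 50 kb. The outermost had its centre 649 bp upstream of the most 5′ start, the next covered that start, and the others were centred 677 bp downstream of it and 666 bp upstream of the start at 26681760. The nearest window beyond these lay 53405 bp from a start. Among the 1615 protein-coding genes with as many start sites as Smarca2, 54.9% had a promoter window and 1.05% had at least 4.

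Smarca4 (ENSMUSG00000032187, chr9:21420613-21508674, plus strand) had 1 promoter window, at 21420289 to 21420788, over the start site and the untranslated region, with 51 CpG. Its other 5 windows within 50 kb lay 24657 and 10231 bp upstream and inside the gene, 2686, 33730 and 34053 bp past the nearest start. The last pair overlapped each other and reached a coding exon. Farther in, introns held windows at 21496934 and 21503436, so Smarca4 carried 5 windows inside the gene and off its promoters (5.68 per 100 kb), against 1 in Smarca2 (0.577 per 100 kb). The order of the paralogs was thus the opposite at promoters and in gene bodies. Smarca4 lies on chromosome 9, where 50.6% of called peaks were kept in the list, against 26.5% on chromosome 19, and the part of this in their counts was not tested.

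The core scaffold subunits SMARCC1 and SMARCC2 hold the complex together. Smarcc1 (ENSMUSG00000032481, chr9:110034541-110142682, plus strand) had 1 promoter window, at 110034051 to 110034550, whose centre lay 240 bp upstream of its single annotated start. Its other windows within reach were a pair at the shared promoter of Dhx30 and Gm10615, and a single intronic window stood 104601 bp into the gene. Smarcc2 (ENSMUSG00000025369, chr10:127896292-127927229, plus strand) had 1 promoter window as well, centred 709 bp upstream. Both genes have a single annotated start site, as has Smarcd1, which had no promoter window. In this class 27.3% of 9829 protein-coding genes had a promoter window.

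Of the 9 windows near Smarcc2, 6 lay at promoters of its neighbours, which include Obfc2b, Rnf41, Myl6 and Myl6b. One window lay in an intron, 19587 bp past the start. Only 1 of the 9 had its nearest protein-coding start site at Smarcc2 itself. Protein-coding genes with as many neighbours within 50 kb as Smarcc2, which has 4, had a median of 4 windows.

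The Smarcc2 promoter window, at 127895333 to 127895832, did not reach the annotated start. RefSeq (GRCm38.p6) lists a serine tRNA gene, n-TScga2, and a microRNA gene, Mir8105, next to Smarcc2. The window held GTTCGAATC, letters of the tRNA B box that RNA polymerase III promoters use, on the minus strand at 127895532 to 127895540, printed above as GATTCGAAC. These letters occurred in 53 of the 50000 windows (0.106%), in 15 promoter windows, and in no other window of the 10 genes. They were chosen after this window had been read. The RefSeq hairpin of Mir8105 matched the window exactly at 127895736 to 127895824. Neither match says which of the 3 genes the open chromatin belongs to.

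SMARCD subunits link the complex to transcription factors. Smarcd1 (ENSMUSG00000023018, chr15:99532718-99544426, plus strand) had no promoter window, and its 3 windows lay 38796 bp upstream and 22632 and 43413 bp downstream. None of the 3 had its nearest protein-coding start at Smarcd1, and the closest of them was a promoter window of 2310016M24Rik and Gm16537. Smarcd2 (ENSMUSG00000078619, chr11:106124493-106134286, minus strand) had 4 promoter windows and 14 windows in all, and 97.2% of protein-coding genes had fewer.

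Smarcd2 is the shortest of the 10 genes at 9794 bp and has 9 annotated start sites, the most of them. An overlapping pair of promoter windows, with 59 and 41 CpG, spanned 858 bp over the most 5′ start. Single windows lay 8 bp upstream of an internal start at 106129113 and just past another at 106126250, with 10 and 7 CpG. The window past 106126250 was a promoter window only through that start, which is of a noncoding transcript. Of 436 protein-coding genes with as many start sites, 73.6% had a promoter window and 3.21% had at least 4. The 10 other windows lay at promoters of Ccdc47, Ddx42, Ftsj3, Psmc5 and a U6 gene (4 windows) or outside the gene (6 windows), among them windows nearest to Gh and to Cd79b, a B cell receptor gene. Genes with 7 neighbours, as here, had a median of 6 windows.

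SMARCB1, lost in rhabdoid tumors, and SMARCE1 are further core subunits of the BAF and PBAF forms. Smarcb1 (ENSMUSG00000000902, chr10:75359514-75384362, minus strand) had no promoter window. Its nearest window, at 75375522 to 75376021, lay 1135 bp past an internal start of a noncoding transcript and 8590 bp past the most 5′ start. By the nearest of any start, the 1135 bp was the smallest distance outside the limit of 1 kb. The largest inside was the 709 bp of Smarcc2. Of the other 5 windows, 3 lay at promoters of Derl3, Chchd10 and Gm5134, another in an intron and the last between genes. Smarce1 (ENSMUSG00000037935, chr11:99070361-99092331, minus strand) had the fewest windows, 2. Its promoter window, at 99091684 to 99092183, covered internal starts and the untranslated region, with 63 CpG, and the other, 45167 bp from a start, was nearest to Ccr7, a leukocyte chemokine receptor gene.

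The ARID1 subunits are alternative members of the canonical BAF complex. Arid1a (ENSMUSG00000007880, chr4:133234923-133312684, minus strand) had 1 promoter window, at 133308745 to 133309244, 531 bp past an internal start at 133309526. It lay 3689 bp past the most 5′ start, which had none within 1 kb. Its other windows were 2 inside the gene, 1 at the promoter of Pigv and 1 that lay 4234 bp upstream.

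Arid1b (ENSMUSG00000069729, chr17:4994332-5347656, plus strand), the longest of the 10 genes at 353325 bp, had 2 promoter windows, with 45 and 66 CpG, over a stretch of 1651 bp from 4995053 to 4996703. All 10 of its windows within 50 kb had their nearest protein-coding start at Arid1b, which has no protein-coding neighbour within that reach. Those from 5295675 onward were counted only through the start at 5341714, 347382 bp past the most 5′ start. Inside the gene and off the promoters lay 11 windows, 6 of them more than 50 kb from a start. An overlapping intronic pair at 5189653 and 5189955 had 33 and 17 CpG, against a median of 6 for windows away from any start. Per 100 kb the gene held 3.11 such windows and Arid1a 2.57.

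**Figure D2:**
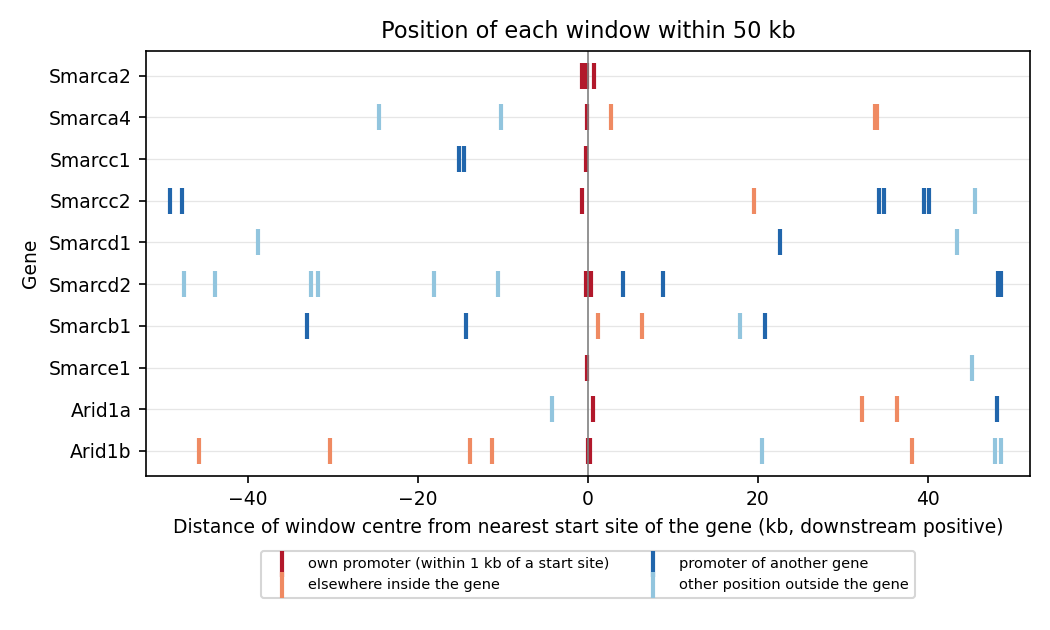
Position of every window within 50 kb of a start site for each gene, as the distance in kb of its centre from the nearest start site of that gene, with downstream positive; each mark is 1 window and its color gives the class. The marks of Smarca2 all sit within 1 kb of a start, and those of Arid1b and Smarcd2 run out to nearly 50 kb.

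Over the bodies of all 10 genes, 23 windows lay inside and off the promoters, 10 of them more than 50 kb from a start. That was 2.56 per 100 kb, against 1.89 over protein-coding genes. Smarcd1, Smarcd2 and Smarce1, the shortest of the 10, had none. Across the 44 annotated start sites, 23 had a window within 1 kb, against 37.5% of the 70018 start sites of protein-coding genes. At the most 5′ start 7 of the 10 genes had one, against 39.4% of protein-coding genes. That of Arid1b was centred 971 bp from this start, close to the limit of 1 kb.

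CpG-rich starts are the usual kind for genes used in most cells, and the subunit genes were of this kind. When protein-coding genes were split into 10 equal classes by the number of CpG within 1 kb of the most 5′ start, Arid1a (84 CpG) fell in class 7, Smarcd1 (96) in class 8 and 5 genes in class 9. Smarcd2, Smarcc2 and Arid1b fell in class 10, the richest. The share of protein-coding genes with a promoter window rose from 3.13% in class 1 to 66.4, 67.9, 68.4 and 70.6% in classes 7 to 10. The 8 of 10 genes with a promoter window thus stood nearer to the share of equally CpG-rich genes than to the 43.5% over all genes. The 2 genes without a promoter window, Smarcb1 (110 CpG, class 9) and Smarcd1, were not CpG-poor.

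**Figure D3:**
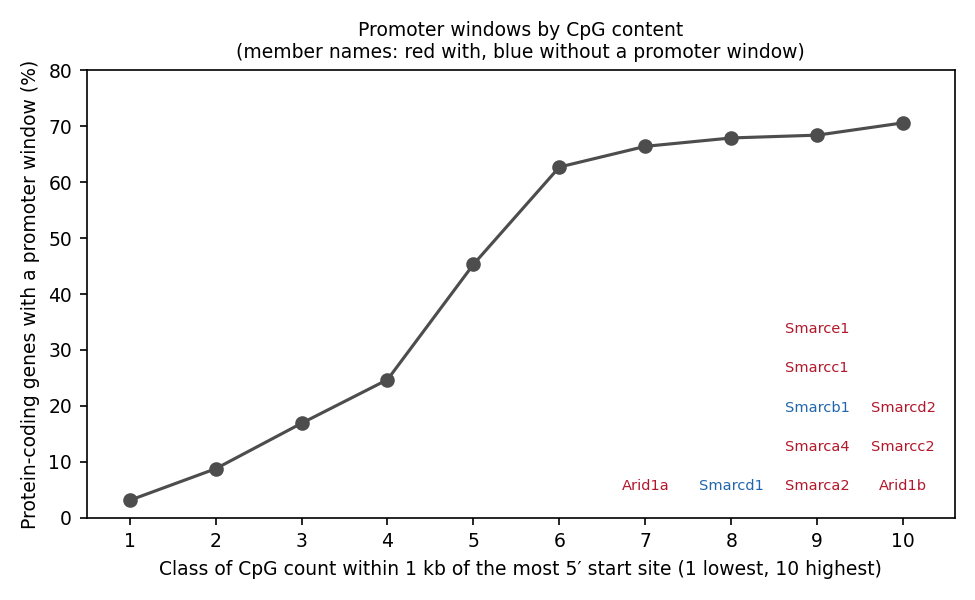
Share of protein-coding genes with a promoter window (percent) in each of 10 classes of CpG count around the most 5′ start; gene names stand at their class, red with and blue without a promoter window, and their height carries no value. The share rose from 3.13% to 70.6%, and all 10 genes stood in classes 7 to 10.

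The 15 promoter windows of the subunit genes had 7 to 66 CpG (median 41) and a median GC content of 64.6%, against 31 CpG and 59.6% in all 13310 promoter windows. The 30 windows more than 1 kb from any start had a median of 5.5 CpG, close to the 6 of all 36690 such windows.

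The windows were then searched, on either strand, for short consensus words of 12 factor families. GGGCGGG, the GC box bound by SP and KLF factors, was in 7 of 15 promoter windows (46.7%), against 47.2% of all promoter windows. The pair at the most 5′ start of Smarcd2 had 4 copies in each, of which copies in the overlap were counted in both. CCAAT followed by C or G and then A or G, the NFY box, was in 5 of 15 (33.3%), against 24.7%. The same Smarcd2 pair shared a single NFY match, at 106134365 to 106134371, which was counted in both windows. The Smarcc2 match, at 127895556 to 127895562, lay near the B box letters of that window and is printed above in lower case. No test was made of either difference. Matches are descriptions and not binding sites.

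Rarer words were each in 1 or 2 of the 15 promoter windows, or in none. NRF1, a factor of genes for mitochondria and growth, has the word GCGCATGCG, which was in the Smarcc1 promoter window and in 3.16% of all promoter windows. TGACGTCA, the cyclic AMP response element, was in the window just past an internal start of Smarcd2 and in 3.39%. ACATTCC, the word of the TEAD factors, was in 2 promoter windows of Smarca2 and in 4.41%. In 1 of these, TEAD and NFY letters stood directly side by side. TGTGGTT, the RUNX word, was in a promoter window of Smarcc1 and of Arid1b, and in 7.29%. CCGGAAGT (Ets), AAGATGGCG (YY1), GAGGAAGT (PU.1), CCACNAGGG (CTCF) and CACGTG (the E-box) were in none of the 15, against 7.16, 3.35, 4.21, 3.04 and 13.2% of all promoter windows.

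TGACTCA and TGAGTCA are the words of AP-1, the dimer of JUN and FOS proteins. The Smarca2 window over the start site held TGACTCA at 26679678 to 26679684, the only AP-1 word in the 15 promoter windows, against 7.78% of all promoter windows. Away from starts it was in 5 of 30 windows (16.7%), against 15.6% of all such windows. These 5 lay in an intron of Smarcc2, upstream of Smarcd2 near Gh, in an intron of Arid1a, and inside and downstream of Arid1b. In no case was the word in the central 200 bp of the window, where 7.92% of all windows away from starts held it.

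An intronic window of Arid1b, at 5295675 to 5296174 and 45789 bp upstream of its nearest start, held a word of both Ets and NRF1 type. Such words are mostly promoter words, and away from starts they were in 0.799% and 0.207% of windows. The NRF1 letters there form a palindrome, which matches on both strands and was counted as 2 matches. The window had 13 CpG.

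The running number in the peak names shows how many peaks were called between the windows that the authors kept. At least 168208 peaks were called in all and 49030 were kept, 24.6% on 16 autosomes (23.6 to 26.5%) and 47.5% on chromosomes 7, 8, 9 and X (41.5 to 51.8%). Between the outermost windows of its reach, Smarca2 had all 4 called peaks kept and Smarcd2 13 of 19 (68.4%). Arid1b had 10 of 27 (37.0%), Arid1a 5 of 14 (35.7%) and Smarcd1 3 of 11 (27.3%). The Arid1b numbers were summed over separate stretches around distant starts, leaving out the peaks between them. The median over the 10 genes was 48.1%, against 52.6% over protein-coding genes with at least 2 windows. Each interval begins and ends at a kept peak, which raises its share. At 9 of the 10 genes the share was above that of the whole chromosome, which such intervals favor. How many protein-coding genes were above theirs was not counted, so the 9 of 10 is no sign of enrichment. At Smarca4 (46.2%) the share was below the 50.6% of chromosome 9.

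Being off the list did not mean that no peak was called. Between the windows on either side of the most 5′ start, 6 called peaks were not kept at Smarcd1, over 61428 bp, and 3 at Smarcb1, over 22914 bp. At Arid1a 3 were not kept over 7923 bp. Their positions are unknown, so whether 1 of them lies at a promoter was not tested. Smarca4 and Smarcc1 lie on chromosome 9, where 50.6% of peaks were kept, and without both of them 6 of 8 genes had a promoter window. Without chromosomes 7, 8, 9 and X the share over protein-coding genes was 42.8%.

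**Figure D4:**
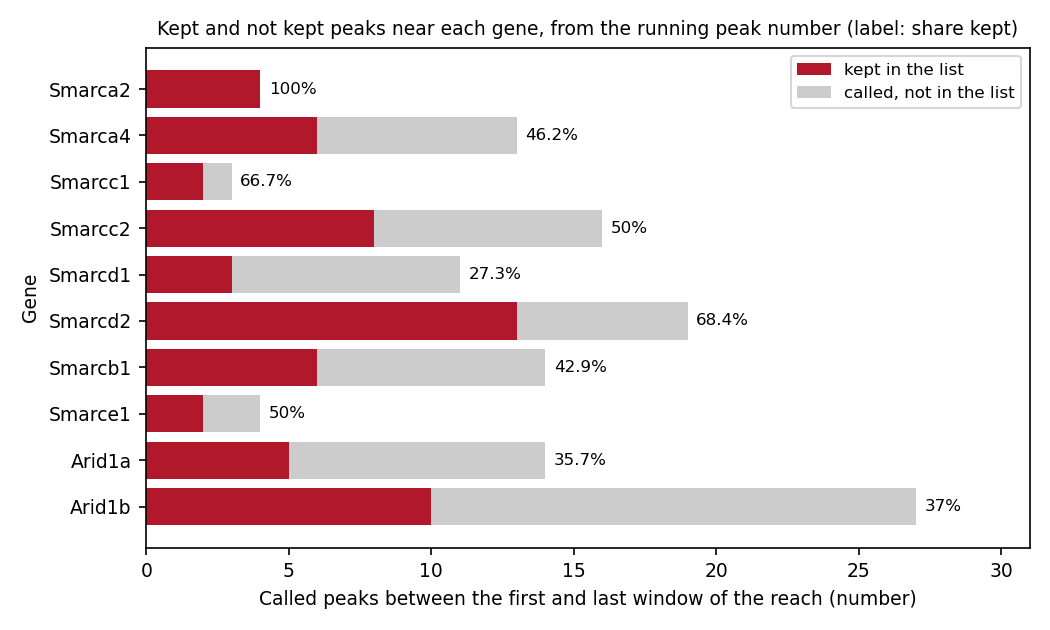
Called peaks between the first and last window of the reach of each gene, from the running peak number, split into those kept in the list (red) and those called but not in it (grey), with the share kept as a label. All 4 peaks of Smarca2 were kept, and 17 of the 27 at Arid1b were not. Those 27 are summed over separate stretches around distant starts.

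Other remodeler genes are given for comparison. Of 20 further SWI/SNF subunit genes, 13 (65.0%) had a promoter window, with a median of 4.5 windows within 50 kb. The PBAF genes Arid2, Pbrm1 and Brd7 had 2, 1 and 4 promoter windows, and Phf10, also of PBAF, had none. Brd9, of the non-canonical complex, had 1, and Bicra and Bicral, of the same complex, had none. The 7 without were Phf10, Dpf1, Dpf3, Actl6b, Bicra, Bicral and Bcl11b. Promoter windows were present at 11 of 13 ISWI genes, 13 of 18 CHD and NuRD genes and 15 of 18 INO80 and SWR1 genes.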

How the data were processed

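Cells of 1 PyMT mouse breast tumor were measured by Pi-ATAC in 4 plates of 96 wells that form 1 group per the labels. According to the methods and the submitters' processing notes, the authors used Bowtie2 2.1.0 for mapping to mm9 and Picard 1.79 for duplicate removal. They then pooled the cells and called summits with MACS2 at a q of 0.05 (version not given in the sources used here). The deposited values are positions and peak names (unit other), without score or count, of the 50000 windows of 500 bp that the authors kept. According to the paper, peaks were kept by lowest q up to this number in most of its datasets.

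Windows were placed by their centre against GENCODE vM1 start sites on the NCBIM37 sequence (mm9), counting from 1. RefSeq tables (GRCm38.p6) served only for neighbouring gene names and microRNA sequence. Python 3.11.15, numpy 2.4.6, scipy 1.17.1 and matplotlib 3.10.9 were used. The searches for the nearest start and for the words were checked on planted data, and the window counts were not. The interval is exact binomial (Clopper-Pearson, 95%) and covers counting error only.

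The 10 genes, the gene lists, the words and the rules were chosen with earlier results of these data known. Named are the 10 genes, neighbours whose start lies at or nearest to one of their windows, and members of the listed complexes. Bicra and Bicral were matched by older symbols. No test was made, since there is 1 list and no replicate. Alternatives varied the distances, the start sites, the merging of overlapping windows and the chromosomes used.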

Additional observations from a re-analysis of the deposited data

How the results depend on the processing

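The 8 genes with a promoter window became 6 within 500 bp (Smarcc2 and Arid1a lost), 9 within 2 kb (Smarcb1 gained) and 7 with the most 5′ start alone (Arid1a lost). The mean of 6.2 windows per gene became 2.1 within 10 kb, 11.3 within 100 kb and 3.1 where the nearest protein-coding start had to be that of the gene. The median of 5.5 per gene became 2.0, 11.5 and 2.0 under the same settings. With the most 5′ start alone the mean was 4.7. The 43.5% of protein-coding genes with such a window became 30.0% over all annotated genes, 40.1% within 500 bp and 47.0% within 2 kb. The 5 of 30 windows with an AP-1 word became 0 in the central 200 bp. Of 40 single-gene alternatives, 17 stayed within 1.5 times and 23 did not, none of them from merging overlapping windows. A stricter threshold was not run, because the list has no score. No paired analysis was possible because all wells form 1 group in 1 pooled list.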
